A study of Mus musculus with 4 samples.

Results

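The 39 genes described here are the cytosolic aminoacyl-tRNA synthetases with their complex scaffolds and the genes of the integrated stress response that respond to amino acid supply. They were taken from the array by gene name, from a list drawn up with earlier results of these data known. Of these, 22 were synthetase genes or scaffolds and 17 were stress response genes. All 39 names were on the array, as 51 of 55681 non-control probes, and 38 were among the 24596 genes tested. The exception was *Atf5*, described below. All 38 tested members were well above background on all 4 arrays.

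Each aminoacyl-tRNA synthetase joins one amino acid to its tRNA, the charged form that the ribosome uses. When amino acids run short, uncharged tRNA activates the kinase GCN2, which phosphorylates the translation factor eIF2, as PERK does when the endoplasmic reticulum is overloaded. General translation then slows while ATF4 is made from its own mRNA, and ATF4 raises the transcription of synthetases, amino acid transporters and amino acid biosynthesis genes. Pancreatic beta and acinar cells carry a heavy load of protein synthesis, and loss of PERK in mice damages both.

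The arrays compared clusters grown from cultured pancreatic cells with islets, in Swiss albino mice, all male and 10 to 12 weeks old. For the cluster samples (2 arrays), attached fibroblast-shaped cells that resemble mesenchymal stromal cells were passaged and then moved to low-adherence dishes in serum-free medium with albumin and insulin-transferrin-selenium. Taurine at 0.3 mM was added on day 3. On day 7 nicotinamide (100 mM), a higher taurine dose (3 mM) and GLP-1, a gut hormone that acts on beta cells, were given, and the clusters were collected after 10 days. For the islet samples (2 arrays), islets came from a collagenase digest of the pancreas and were kept in medium with serum. The titles of the islet samples state 48 h of culture whereas other labels describe fresh isolation, and the labels do not settle which applies. Both groups were made from pools of 2 to 4 mice. Nothing in the labels says whether the arrays of 1 group stem from separate pools, and p-values therefore cover the spread among these arrays alone, perhaps a technical one. The groups differed in medium, serum and time in culture as well as in cell type, and these cannot be told apart.

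The labelled cell types were checked against their markers. All 8 islet markers, all 10 acinar markers and 3 of 4 duct markers were lower in the clusters, and all 9 mesenchymal stromal markers were higher. The summed scaled signal of the islet markers was 192 and 32.1 on islet replicates 1 and 2 and 0.88 and 0.62 on the cluster arrays. The acinar sum was 5174 and 8020 on islet replicates 1 and 2 against 1.15 and 1.12 on the cluster arrays, so the islet samples held acinar RNA. The stromal sum was 1674 and 1520 in the clusters and 50.4 and 59.9 in the islets. The macrophage sum was 25.7 and 24.1 in the clusters and 153 and 180 in the islets, with 3 of 5 markers lower in the clusters. All 4 endothelial and both tested erythroid markers were also lower in the clusters. In the clusters *Gcg*, *Ppy* and *Iapp* of the islet list, *Cpa1*, *Cela2a*, *Cela3b*, *Amy2a5* and *Pnlip* of the acinar list, and *Krt7*, *Cdh5*, *Tek* and *Hbb-b1* of the others were not well above background on either array, nor was the stromal gene *Twist1* in the islets. These markers moved with every comparison given here, and their part in the results was not tested. In bulk samples, fewer cells of a type and less RNA per cell cannot be told apart.

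Levels are given as log2 signal relative to the 75th percentile of the array, so that 0 marks that percentile. Differences are clusters minus islets on the same scale. A gene was called higher or lower when limma's adjusted p (Benjamini-Hochberg over all genes tested) was below 0.05. Levels of different genes come from different probes and are not compared. Of the 38 members tested, 12 were higher in the clusters (31.6%), 12 were lower (31.6%) and 14 were not called. Among all genes tested, 57.9% were called, 27.2% higher and 30.7% lower, against 63.2% of members. With array-median scaling 31.9% of all genes were higher and 24.2% lower, and the members counted 12 and 7. With the percentile over probes detected on all arrays these shares were 24.7% and 36.5%, and the members counted 11 and 15. The groups did not overlap for 33 members (86.8%), against 83% of all genes. The shares of called members were thus near those of the whole array, and the median member difference was -0.06 against -0.15 for all genes. A total of 7 higher and 6 lower members differed by at least 2-fold, and called differences of at least 2-fold were found in 38.8% of all genes.

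The synthetases split in both directions. Alanyl-, glutamyl-prolyl-, tyrosyl-, histidyl- and aspartyl-tRNA synthetase genes were higher in the clusters. Lysyl-, tryptophanyl-, glutaminyl-, arginyl-, seryl-, isoleucyl- and the beta subunit of phenylalanyl-tRNA synthetase were lower, together with both scaffold genes. The other 8 synthetase genes were not called. Counted with the scaffolds, 5 of 22 were higher (22.7%) and 9 were lower (40.9%), and the median difference was -0.37 against -0.15 for all genes. The called share, 63.6%, was near the 57.9% of all genes, of which 27.2% were higher and 30.7% lower.

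Promoter sequence is shown for members that hold the C/EBP-ATF element, the composite site that ATF4 binds with a C/EBP partner, because *Cebpb* and several ATF4 targets are among the results. The letters TGATGNAAN were searched on both strands of RefSeq promoter windows (GRCm38.p6, 250 bases before to 50 after each start), which were at hand for 31 of the 39 members. Of these 31, 8 held a match (25.8%), compared with 4.5% of 27025 genes with a window. The members were chosen as genes of the response that ATF4 drives, so these shares are description and not a test. The coordinates given with each promoter match, here and for the stress response genes, are those of the 30 bases shown. The strand given is that of the gene. Among the synthetases, *Gars*, *Iars*, *Tars* and *Yars* are shown as 30 bases on the gene's strand with the element in capitals.
Gars: ctggctgcgctATTTCATCAtgcaccgggc
Iars: gcactgtcagtATTGCATCAcctccagacg
Tars: ccaggagtcccGTTGCATCAgctggttagc
Yars: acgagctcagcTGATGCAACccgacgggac
The matches lay 31 bases before the start of *Gars* (chr6:55037959-55037988, plus strand) and 6 bases after that of *Iars* (chr13:49682125-49682154, plus strand). Those of *Tars* and *Yars* lay 16 bases before (chr15:11399656-11399685, minus strand) and 3 bases after the start (chr4:129189895-129189924, plus strand). *Yars* was higher in the clusters, *Iars* was lower, and *Gars* and *Tars* were not called. A match describes letters only and is not a measured binding site.

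*Aars* (alanyl-tRNA synthetase) stood at 6.27 and 6.11 in the clusters and at 4.67 and 4.28 in the islets. Both cluster arrays were above both islet arrays, and the difference was 1.72 ± 0.19 (SE of the fit), a 3.29-fold higher level (limma adjusted p = 0.00286). *Eprs*, which encodes the fused glutamyl-prolyl enzyme, stood at 3.59 and 3.52 in the clusters and 2.40 and 2.62 in the islets. The groups did not overlap, and the difference was 1.05 ± 0.15 (2.07-fold, limma adjusted p = 0.00553). *Yars* (tyrosyl-tRNA synthetase) gave -0.49 and -0.66 in the clusters and -1.46 and -1.70 in the islets, again without overlap, a difference of 1.00 ± 0.16 (limma adjusted p = 0.00805). *Hars* (histidine) and *Dars* (aspartate) were higher by smaller amounts, 0.54 ± 0.14 and 0.47 ± 0.13 (limma adjusted p = 0.0322 and 0.0358).

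The largest decrease among the members was that of *Kars*, the lysyl-tRNA synthetase gene. It stood at 3.40 and 3.26 in the clusters and 6.19 and 6.16 in the islets. The groups lay far apart relative to their spread, with means of 3.33 ± 0.10 and 6.18 ± 0.02 (SD, n = 2 each), and *Kars* was 7.19-fold lower in the clusters (log2 -2.85 ± 0.14, limma adjusted p = 0.000301). *Wars* (tryptophanyl-tRNA synthetase), which is also induced by interferon gamma, stood at 4.38 and 4.20 in the clusters and 6.73 and 6.58 in the islets. It was 5.16-fold lower (log2 -2.37 ± 0.15, limma adjusted p = 0.000599), and its second probe was lower too (-3.34). The part of interferon in the *Wars* difference was not tested. Among 9 other interferon response genes tested, 7 were lower in the clusters (77.8%, against 30.7% of all genes), with a median difference of -1.89. They included *Psmb9*, an immunoproteasome subunit (-3.93 ± 0.14), the antiviral gene *Ifit3* (-3.15 ± 0.23) and the ubiquitin-like modifier *Isg15* (-2.83 ± 0.14). The exception called higher was the chemokine gene *Cxcl10* (1.36 ± 0.37, limma adjusted p = 0.0351), whose call was lost without either cluster array (limma adjusted p = 0.106 and 0.0965).

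*Qars* (glutaminyl-tRNA synthetase) stood at 4.85 and 4.71 in the clusters and at 5.89 and 5.82 in the islets, a 2.11-fold lower level (log2 -1.08 ± 0.14, limma adjusted p = 0.00414). *Rars* (arginine) stood at -0.26 and -0.25 in the clusters and 0.75 and 0.47 in the islets, a difference of -0.86 ± 0.16 (limma adjusted p = 0.0118). For *Sars* (serine) the cluster arrays gave 5.32 and 5.22 and the islet arrays 6.24 and 5.97, a difference of -0.83 ± 0.16 (limma adjusted p = 0.0134). In each of these genes both cluster arrays lay below both islet arrays. *Iars* (isoleucine) was lower by a like amount (-0.82 ± 0.16, limma adjusted p = 0.0146).

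The scaffold proteins AIMP1 and AIMP2 hold several synthetases in one cytosolic complex, and both genes fell. *Aimp1* stood at 4.46 and 5.12 on cluster replicates 1 and 2 and at 6.20 and 6.08 on the islet arrays. The cluster arrays were further apart from each other (SD 0.47, n = 2) than for any other synthetase gene, yet both were below the islets (log2 -1.35 ± 0.26, 2.55-fold lower, limma adjusted p = 0.0135). *Aimp2* stood at 4.00 and 3.95 in the clusters and 5.13 and 5.03 in the islets, a 2.15-fold lower level (log2 -1.10 ± 0.13, limma adjusted p = 0.00344). Of the 11 genes of the complex, 6 were lower, 2 were higher (*Eprs* and *Dars*) and 3 were not called, and the median was -0.82. These are 54.5% lower and 18.2% higher, against 30.7% and 27.2% of all genes. The accessory gene *Eef1e1*, one of the 3 not called, differed by 0.00.

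The cytosolic phenylalanyl enzyme is built from an alpha and a beta subunit. *Farsb* was called lower at -0.46 ± 0.14 (limma adjusted p = 0.0467), whereas *Farsa* was not called (0.19 ± 0.14, limma adjusted p = 0.308). The changes of the subunit genes differed by 0.65, a gap that was not tested. It depends on the probe standing for *Farsa*, whose other probes gave -0.05 and -0.37, also not called. *Lars* (leucine, 0.03 ± 0.17) and *Tars* (threonine, 0.00 ± 0.16) overlapped between the groups. *Vars* (valine), *Cars* (cysteine), *Nars* (asparagine) and *Mars* (methionine) lay between -0.12 ± 0.14 and -0.47 ± 0.23. *Gars* (glycine) just missed the threshold at -0.49 ± 0.15 (limma adjusted p = 0.0504).

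By structural class, 1 of 9 class I genes was higher and 4 were lower (median -0.47), and 3 of 10 class II genes were higher and 3 were lower (median -0.13). The called shares of 55.6% and 60% were about that of all genes (57.9%). The fused *Eprs*, which holds an enzyme of each class, was counted in neither. In the mitochondrial synthetase list, 1 of 18 genes tested was higher and 7 were lower, with a median of -0.43. These counts include *Qrsl1*, an amidotransferase subunit gene and not a synthetase gene, which was called lower (-0.50 ± 0.13). The called share of the list, 44.4%, was below the 57.9% of all genes, and 38.9% were lower against 30.7%. *Aars2* (-2.04 ± 0.35), *Ears2* (-1.49 ± 0.13) and *Mars2* (-1.29 ± 0.19) had the largest decreases. *Aars2*, the mitochondrial alanyl enzyme, thus differed in sign from the cytosolic *Aars*. *Nars2* was the one gene called higher (2.49 ± 0.58), at -2.90 and -2.94 in the clusters and -4.57 and -6.24 in the islets. It was well above background on only 1 islet array and passed the filter through the clusters alone, so its call is not support for a difference. The call was lost without either cluster array and with normexp background correction (0.34, limma adjusted p = 0.0704).

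**Figure D1:**
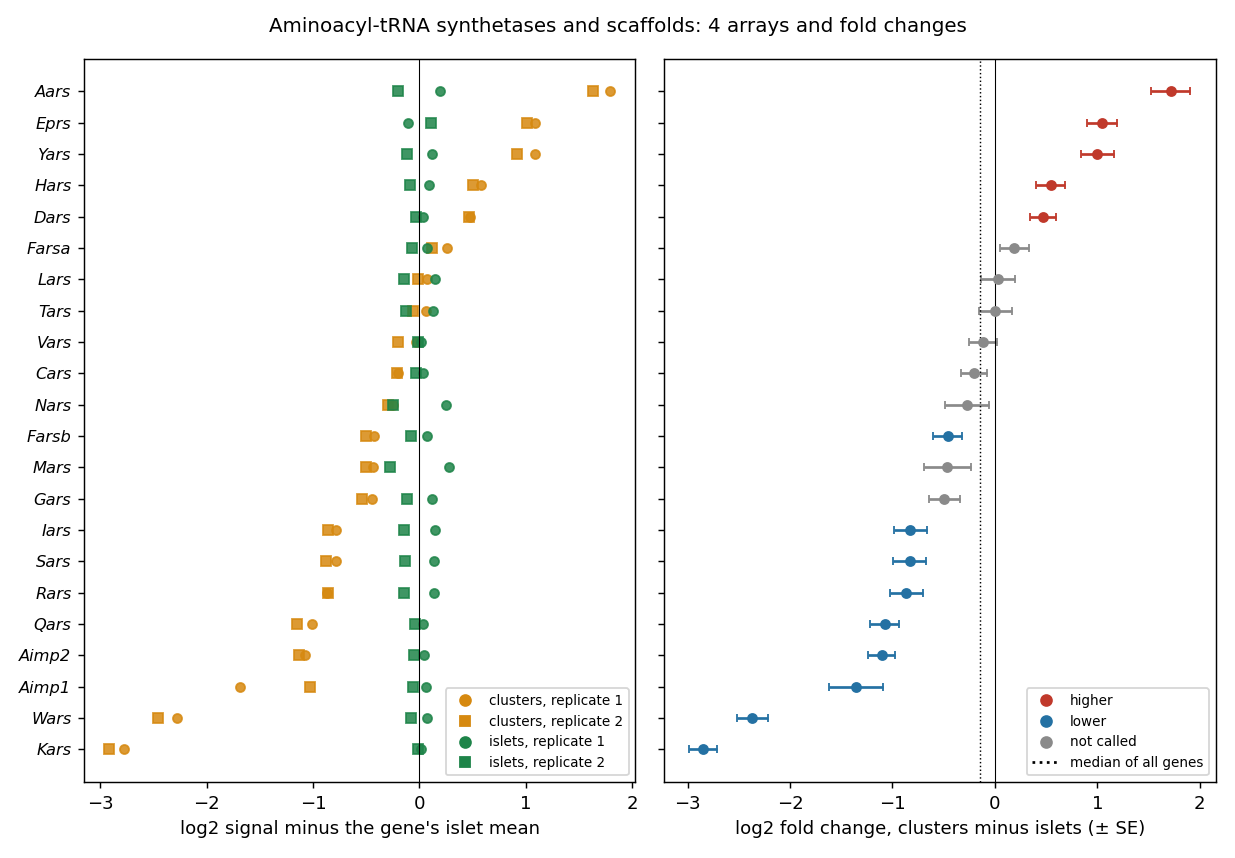
The left panel plots, for each of the 22 synthetase and scaffold genes, the log2 signal on each of the 4 arrays minus the gene's islet mean (orange, clusters; green, islets; circles, replicate 1; squares, replicate 2). The right panel plots the log2 difference, clusters minus islets, with the SE of the fit (red, called higher; blue, called lower; grey, not called; dotted line, median of all genes). Genes run from *Aars* at 1.72 to *Kars* at -2.85.

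The islet arrays differed from each other in a shared way across these genes. Islet replicate 1 exceeded islet replicate 2 in 95.5% of the synthetase and scaffold genes, the exception being *Eprs*, against 48.2% of all genes tested. Over all members the share was 81.6%, with a median gap of 0.21 on the log2 scale against -0.02 for all genes. Such shares were not particular to the members. They were 100% of the amino acid transporters, 83.3% of the mitochondrial synthetase list and 78.9% of the endoplasmic reticulum list (median gaps 0.28, 0.26 and 0.32). The interferon and hypoxia lists went the other way, at 33.3% and 30%. The hormone-cell markers were also higher on islet replicate 1, by a median of 2.40, while the median gap of the acinar markers was -0.71. The part of these markers in the gap was not tested. For *Mars* the difference shifted with the islet array used. The gene stood at 3.76 and 3.21 on islet replicates 1 and 2 and at 3.05 and 2.99 on the cluster arrays. Its difference was -0.47 with all arrays, not called, and -0.74 without islet replicate 2, where it was called lower. That fit leaves 1 islet array, so it does not show that the gap decided the call.

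Several of the smaller synthetase differences lost their call when 1 array was left out, in fits with fewer arrays. Such a loss does not show that a single array carried the call. Without cluster replicate 1 or without cluster replicate 2, *Rars* (limma adjusted p = 0.0700 and 0.0650), *Iars* (0.0709 and 0.0832), *Sars* (0.0650 and 0.0803), *Hars*, *Dars* and *Farsb* were no longer called, and *Yars* was lost without cluster replicate 1 (0.92, limma adjusted p = 0.0563). Scaling mattered too, with all arrays kept. With the array median, *Iars* (-0.61, limma adjusted p = 0.0566), *Sars* (-0.61, 0.0504) and *Farsb* (-0.245, 0.240) were not called. That setting left 6 synthetase and scaffold genes called lower, against 9 as reported and 11 with the percentile over detected probes. *Hars*, *Dars* and *Farsb* also lost their calls without the filter on dim probes and with each array's own unflagged probes setting the scale. *Aars*, *Eprs*, *Kars*, *Wars*, *Qars*, *Aimp1* and *Aimp2* kept their calls under all 18 alternative settings.

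Among the stress response genes, *Cebpb*, *Ddit3*, *Trib3*, *Ppp1r15a*, *Psat1*, *Psph* and *Cth* were higher in the clusters, while *Asns*, *Phgdh* and *Sesn2* were lower. Of 16 tested, 7 were higher (43.8%), 3 were lower (18.8%) and 6 were not called, and the median difference was 0.26. The called share, 62.5%, was near the 57.9% of all genes, of which 27.2% were higher and 30.7% lower. The C/EBP-ATF element described above was found in 3 of these genes, shown because their levels went in different directions.
Trib3: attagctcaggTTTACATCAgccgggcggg
Chac1: ccttccctgccGTTGCATCActcctgccag
Asns: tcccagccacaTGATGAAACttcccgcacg
Their matches lay 13 bases after the start of *Trib3* (chr2:152344029-152344058, minus strand), 194 bases before that of *Chac1* (chr2:119351037-119351066, plus strand) and 23 bases before that of *Asns* (chr6:7693214-7693243, minus strand). A cyclic AMP response element, TGACGTCA, was found in 1 of the 31 member windows (3.23%), that of *Ppp1r15a*, against 2.03% of genes. It lay 12 bases before the start (chr7:45526262-45526291, minus strand).
Ppp1r15a: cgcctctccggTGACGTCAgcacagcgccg

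*Atf4*, the central factor of the pathway, is controlled mainly through translation of its mRNA, which the array does not measure. Its mRNA stood at 8.69 and 8.61 in the clusters and 8.39 and 8.09 in the islets. Both cluster arrays were higher, by 0.41 ± 0.16, but the difference was not called (limma adjusted p = 0.0946), and its second probe gave 0.20, also not called. *Atf4* became called without islet replicate 1 (0.56, limma adjusted p = 0.0437), with quantile normalization (0.98, limma adjusted p = 0.0122) and with a variance trend and robust fitting (limma adjusted p = 0.0209).

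*Cebpb* encodes C/EBP beta, a partner of ATF4 on the composite element that also acts in adipocyte differentiation and inflammation. It stood at 8.08 and 8.01 in the clusters and 5.01 and 5.03 in the islets. The arrays of each group nearly coincided, and *Cebpb* was 8.13-fold higher in the clusters (log2 3.02 ± 0.13, limma adjusted p = 0.000234), the largest increase among the members. *Ddit3*, which encodes the pro-apoptotic factor CHOP, stood at 3.62 and 3.53 in the clusters and at 2.34 and 1.76 in the islets. It was 2.88-fold higher (log2 1.52 ± 0.24, limma adjusted p = 0.00708). Its probe lies close to that of *Mars* on the opposite strand of chromosome 10, and *Mars* was not called. *Atf5*, a related factor, was not tested because the spot of its single probe was non-uniform on cluster replicate 1. It stood at 7.75 on cluster replicate 2 and at 6.38 and 5.96 on the islet arrays. With non-uniform spots kept, its 4 values were 7.16, 7.63, 6.27 and 5.86, a 2.52-fold higher level in the clusters (log2 1.33 ± 0.25, limma adjusted p = 0.0125).

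The feedback and effector genes were mixed. *Trib3*, a pseudokinase that restrains ATF4 and CHOP, stood at 6.35 and 6.27 in the clusters and 5.79 and 5.42 in the islets, a difference of 0.70 ± 0.18 (limma adjusted p = 0.0303). *Ppp1r15a* encodes GADD34, which brings a phosphatase to eIF2 and so ends the response. It was higher by 0.92 ± 0.17 (limma adjusted p = 0.0111). *Sesn2*, a leucine sensor that restrains the growth kinase complex mTORC1, was lower (-0.67 ± 0.16, limma adjusted p = 0.0259). These effectors therefore did not move as a group.

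*Chac1*, a glutathione-degrading enzyme strongly induced by ATF4 and CHOP, stood at 4.46 and 4.35 in the clusters and at 4.45 and 4.22 in the islets. The groups overlapped (0.06 ± 0.15, limma adjusted p = 0.739). *Ddit4*, an inhibitor of mTORC1 that also responds to hypoxia and glucocorticoids, stood at 7.45 and 7.28 in the clusters and 7.09 and 7.55 in the islets. Both cluster values lay inside the islet range (0.05 ± 0.21, limma adjusted p = 0.860).

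*Asns*, asparagine synthetase, is a standard reporter of the amino acid response. It stood at 6.91 and 6.75 in the clusters and 7.36 and 7.40 in the islets, so both cluster arrays were lower (log2 -0.55 ± 0.14, 1.47-fold, limma adjusted p = 0.0284). *Ddit3* and *Asns*, both ATF4 targets, thus differed in sign, and their changes were 2.08 apart. The *Asns* call was one of the least stable of the set. It was lost without cluster replicate 1 (limma adjusted p = 0.104), without cluster replicate 2 (0.178) and without islet replicate 2 (0.0664), and its difference was -0.13 with quantile normalization (limma adjusted p = 0.525).

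The 3 enzymes that make serine from a glycolytic intermediate act in the order PHGDH, PSAT1, PSPH, and their genes did not move together. *Phgdh*, the first step, stood at 3.03 and 2.92 in the clusters and 5.05 and 5.23 in the islets. It was 4.50-fold lower (log2 -2.17 ± 0.15, limma adjusted p = 0.000712). *Psat1*, the next step, stood at 5.21 and 5.15 in the clusters and 4.28 and 3.88 in the islets, a 2.15-fold higher level (1.10 ± 0.19, limma adjusted p = 0.00943).

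*Psph*, the last step, stood at 4.23 and 4.14 in the clusters and 3.34 and 2.79 in the islets and was 2.16-fold higher (1.11 ± 0.23, limma adjusted p = 0.0160). The changes of *Psat1* and *Psph* lay 3.27 and 3.28 above that of *Phgdh* on the log2 scale. The *Phgdh* probe that stands for the gene has its mm9 position on chromosome 17 (53337968 to 53338027), although the gene lies on chromosome 3. Both other *Phgdh* probes, placed on chromosome 3, were lower as well (-2.45 and -2.21). The second *Psph* probe was also higher (0.80), and the second *Psat1* probe was not called (0.65, limma adjusted p = 0.077). In the neighbouring mitochondrial folate steps, *Shmt2* (-0.54 ± 0.17, limma adjusted p = 0.0544) and *Mthfd2* (0.11 ± 0.17, limma adjusted p = 0.602) were not called.

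*Cth* encodes cystathionine gamma-lyase, the enzyme that releases cysteine in the transsulfuration pathway. It stood at 4.27 and 4.23 in the clusters and 2.54 and 2.06 in the islets. Both cluster arrays were above both islet arrays, and *Cth* was 3.87-fold higher (log2 1.95 ± 0.21, limma adjusted p = 0.00243), with 2.15 from its second probe. *Cbs*, the enzyme gene of the preceding step, went the other way. It stood at -2.68 and -3.16 in the clusters and 5.61 and 5.18 in the islets, a difference of -8.32 ± 0.25 (limma adjusted p = 0.000121). The acinar markers moved in the same direction as *Cbs*, and their part was not tested.

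*Eif2ak4* encodes GCN2, the eIF2 kinase that senses uncharged tRNA. It was not called by the probe standing for the gene, at 2.43 and 2.38 in the clusters and 2.44 and 2.85 in the islets (-0.24 ± 0.19, limma adjusted p = 0.320). Its 3 probes did not give the same answer. The probe at chromosome 2, 118277964 to 118278023 (mm9), was higher in the clusters (1.37 ± 0.21), while the probes on either side of it, starting at 118253890 and 118300892, were not called (-0.29 and -0.24). The higher probe had low signal, at -2.53 and -2.10 in the clusters and -3.58 and -3.80 in the islets. So did the probe starting at 118253890, at -2.99 and -3.01 in the clusters and -2.87 and -2.55 in the islets. Whether these probes report different transcripts was not tested.

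**Figure D2:**
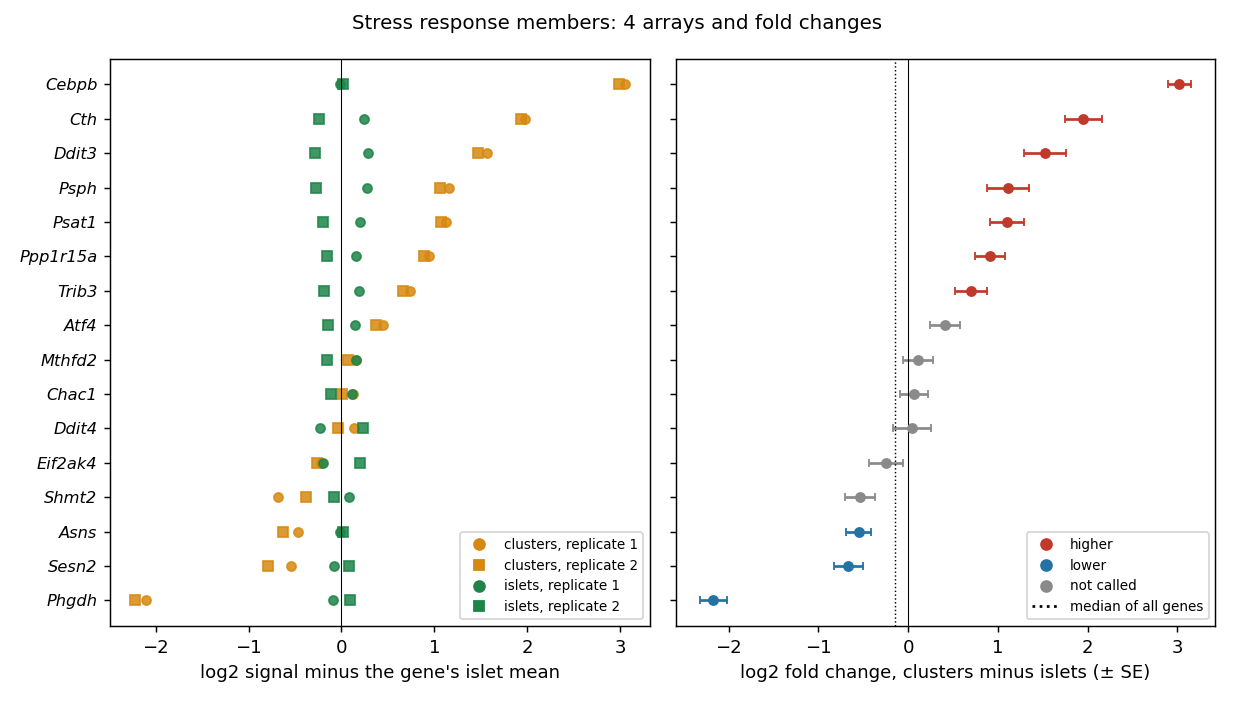
The panels follow the layout of the synthetase plot for the 16 stress response genes tested: log2 signal per array minus the gene's islet mean on the left (orange, clusters; green, islets; circles, replicate 1; squares, replicate 2) and log2 difference with SE on the right (red, higher; blue, lower; grey, not called; dotted line, median of all genes). *Cebpb* lies at 3.02 and *Phgdh* at -2.17, and the groups overlap for *Ddit4*, *Chac1* and *Mthfd2*.

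**Figure D3:**
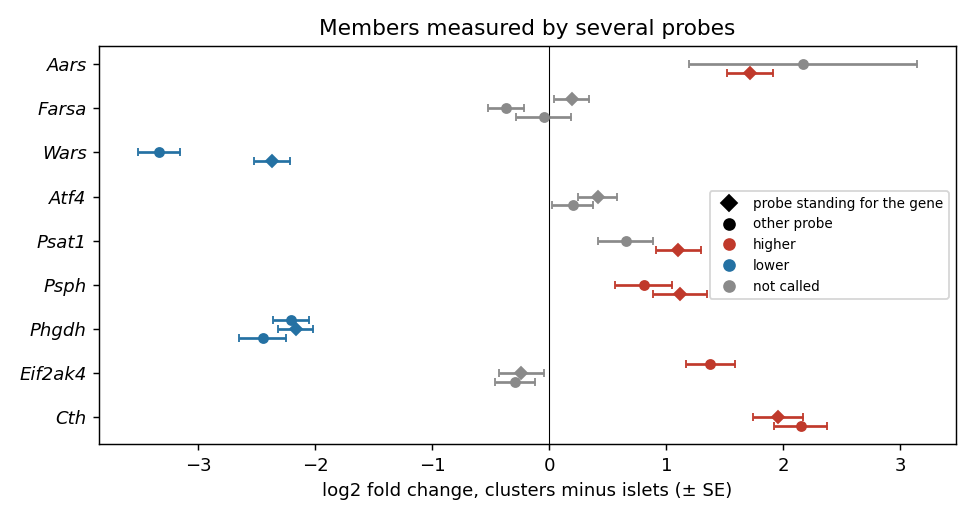
Each point is the log2 difference, clusters minus islets, of 1 probe with the SE of the fit across probes, for the 9 members measured by several probes (diamonds, the probe standing for the gene; circles, other probes; red, called higher; blue, called lower; grey, not called). The *Phgdh*, *Wars* and *Cth* probes share a direction, whereas 1 *Eif2ak4* probe lies at 1.37 apart from its neighbours.

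Some of these calls were also lost when 1 array was left out, which again does not show that a single array carried them. *Psph* (limma adjusted p = 0.0734 and 0.0575), *Ppp1r15a* (0.0673 and 0.0567), *Trib3* (0.138 and 0.109) and *Sesn2* (0.0693 and 0.149) were lost without cluster replicate 1 and without cluster replicate 2, *Trib3* and *Sesn2* also without islet replicate 2 (0.0616 and 0.0663), and *Psat1* without cluster replicate 1 (0.0530). With array-median scaling, which kept all arrays, *Asns* (-0.34, limma adjusted p = 0.0884) and *Sesn2* (-0.45, 0.0503) were not called. *Cebpb*, *Ddit3*, *Cth* and *Phgdh* kept their calls under all 18 alternative settings.

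Other genes of the same pathways were read from lists. Upstream, none of 13 genes for eIF2 kinases, eIF2 subunits and eIF2 regulators was higher, 9 were lower and 4 were not called. The median was -0.64, and 69.2% were lower, against 30.7% lower and 27.2% higher among all genes. This list counted the member *Eif2ak4* again and left out the member *Ppp1r15a*, which was called higher. *Eif2ak3*, which encodes PERK, was 4.73-fold lower in the clusters (log2 -2.24 ± 0.14, limma adjusted p = 0.000594). It stood at 3.19 and 3.14 in the clusters and 5.49 and 5.32 in the islets. *Ppp1r15b*, the constitutive partner of the eIF2 phosphatase, fell by 1.36 ± 0.18 while the inducible *Ppp1r15a* rose. *Eif2ak2* (PKR, the eIF2 kinase activated by double-stranded RNA) fell by 1.30 ± 0.18.

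Of 17 further ATF4 targets tested outside the member set, 4 were higher (23.5%) and 9 were lower (52.9%), with a median of -0.78. Among all genes 27.2% were higher and 30.7% lower. *Bcat1*, a branched-chain aminotransferase, was higher (4.29 ± 0.31), at 1.26 and 1.08 in the clusters against -3.52 and -2.72 in the islets. Its value was 2.06 without cluster replicate 1 and 2.18 without cluster replicate 2. In those fits another *Bcat1* probe had the highest mean and stood for the gene, so these values do not show dependence on 1 array. *Got1*, the cytosolic aspartate aminotransferase, was 3.78-fold higher (1.92 ± 0.14). The hormone gene *Fgf21* was not well above background in the clusters and passed the filter through the islets alone, so its p-value is not given. It was at least 377-fold lower in the clusters (measured means -5.64 in the clusters and 3.41 in the islets). *Atf3*, a stress-induced bZIP factor, was 15.4-fold lower (log2 -3.95 ± 0.30, limma adjusted p = 0.000963), standing at -0.28 and -0.15 in the clusters and 4.12 and 3.34 in the islets. *Atf3* also belongs to the genes induced within minutes of cell handling. Among 12 immediate early genes 8 were lower (66.7%, against 30.7% of all genes, median -0.70), including *Fos* (-2.85 ± 0.25). Higher genes were 16.7% of that list, against 27.2% of all genes, and included *Nr4a1* (5.29 ± 0.16). The part of tissue handling in these values was not tested.

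Of 9 amino acid transporter genes tested, 2 were higher, 3 were lower and 4 were not called. The called share, 55.6%, was near the 57.9% of all genes. *Slc38a2*, the stress-adaptive neutral amino acid carrier SNAT2, was 2.74-fold higher (1.45 ± 0.17, limma adjusted p = 0.00326). *Slc7a5*, the large neutral amino acid carrier LAT1, was higher by 1.17 ± 0.16 (limma adjusted p = 0.00480), but not when its probes were averaged (0.44, limma adjusted p = 0.0604). *Slc7a3*, a cationic amino acid carrier, was lower by the largest amount (log2 -4.43 ± 0.21), from means of 3.83 in the islets and -0.61 in the clusters.

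Genes of the unfolded protein response in the endoplasmic reticulum were called higher in 8 of 19 cases and lower in 3, with a median of 0.41. These are 42.1% and 15.8%, against 27.2% and 30.7% of all genes, and the called share of 57.9% was that of all genes. The higher genes included the protein-folding enzyme *Pdia4* (1.85 ± 0.18), the degradation factor *Edem1* (1.40 ± 0.13) and the chaperone *Hsp90b1* (1.13 ± 0.19, lost without cluster replicate 2 at limma adjusted p = 0.0509). The lower genes included *Derl3* (-3.36 ± 0.13), a degradation factor of secretory cells, and *Xbp1* (-1.79 ± 0.14), a transcription factor needed by acinar and other secretory cells. Among 18 other translation factor genes, 2 were higher and 7 were lower (median -0.45), with *Eif4b* lowest (-1.97 ± 0.13). Their called share, 50%, was below the 57.9% of all genes. Of 10 hypoxia genes, 3 were higher, among them *Vegfa* (4.17 ± 0.14), and 6 were lower. These are 30% and 60%, against 27.2% and 30.7% of all genes.

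**Figure D4:**
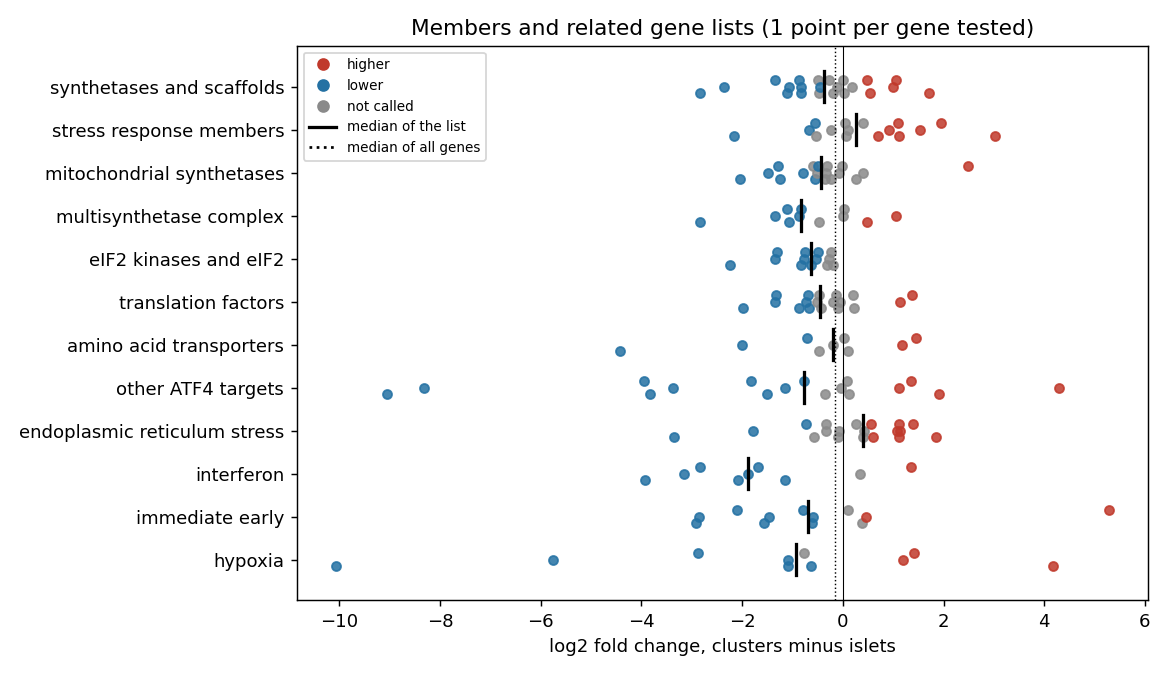
Each point is 1 tested gene at its log2 difference, clusters minus islets, in the 2 member groups and 10 related lists (red, called higher; blue, called lower; grey, not called; black bar, median of the list; dotted line, median of all genes at -0.15). The eIF2 kinase list, which leaves out *Ppp1r15a*, has no gene called higher. The stress response members and the endoplasmic reticulum list have medians of 0.26 and 0.41.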

How the data were processed

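The members and gene lists were chosen with earlier results of these data known. Labels put 500 ng of total RNA per sample on 1-colour (Cy3) arrays, primed with oligo-dT. The deposited scanner files hold spot intensity, made with Agilent Feature Extraction 11.5.1.1 per the file headers, which also give the background subtraction, the detrending and the mm9 probe positions. The flags of the deposited files (well above background, saturated, non-uniform) are codes with no unit, and no spot was saturated. The value table deposited by the authors holds log2 values. Each of its columns followed the scanner values of its own array (r of 0.99995 or higher), and the column medians were -3.61, -3.70, -3.50 and -3.37, so it is log2 signal in the same direction, without centring per gene.

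The values analysed were log2 processed signal minus each array's 75th percentile. The percentile was taken over non-control probes with a value on all 4 arrays, since 510 non-uniform spots were left out on cluster replicate 1 against 2, 26 and 4 on the others. This dropped 490 probes. Probes that the well-above-background flag marked on both arrays of a group, or of each, were kept (34974), and the probe with the highest mean stood for each of 24596 genes. That flag marked 59.7% to 63.6% of the 59305 non-control spots per array. Pearson's r over genes was 0.985 and 0.989 within groups and 0.796 to 0.810 between them. All arrays shared 1 slide and 1 scan time.

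Groups were compared with limma 3.58.1 (R 4.3.3; lmFit, eBayes, 2-sided, no covariates), with 2 residual and 4.28 total degrees of freedom. The procedure was tested on simulated data. A gene dim on both arrays of a group has only a bound there, computed against the higher of its own signal and the lowest well-detected signal of each array. Errors are the SD over 2 arrays or the SE of the fit, and the number of arrays limits the precision. Members with the 8 largest called differences per direction and 7 set genes (*Atf4*, *Atf5*, *Ddit3*, *Ddit4*, *Asns*, *Trib3*, *Chac1*) are given per array, and up to 3 called genes per direction of each related list are named. *Cbs*, *Eif2ak3* and *Atf3* are also given per array, a choice made after their values were seen. Promoter sequences are RefSeq's. One promoter sequence is not reported here. Alternatives covered background correction, scaling, filters, flags, probe averaging, the variance model, the authors' values, the replicate number and each array left out.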

Additional observations from a re-analysis of the deposited data

How the results depend on the processing

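Over the 18 alternatives no member and no named gene of the related lists called here changed sign while called, and 11 of 24 called members kept their call in every one. Of the 14 members not called, 5 gained a call in at least 1 alternative (*Cars*, *Gars*, *Mars*, *Atf4*, *Shmt2*). The number of genes called ranged from 9825 to 15077. The members called higher ranged from 5 to 12 and those called lower from 6 to 11 when each array was left out in turn, in fits where the lone array of a group is assumed to vary like the other group. Scaling moved the balance of calls: 46.9% of called genes were higher as reported (6691 higher, 7562 lower), 56.9% with the array median (7849 and 5953) and 40.3% with the percentile over detected probes (6066 and 8982), and the median of all genes was -0.15, 0.07 and -0.29. With the array median, 7 members were called lower. The median of the stress response members was 0.71 with quantile normalization. Scaling by each array's own unflagged probes, chosen after seeing the data, called 3 synthetases higher and 8 lower and 7 stress response genes higher and 1 lower. The replicate numbers of the titles were not shown to pair the arrays (correlation of deviations -0.02), and with the replicate block 12081 genes and 10 higher and 9 lower members were called.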
